A study of Mus musculus with 6 samples.

Results

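The ALG genes encode enzymes that build the lipid-linked sugar precursor of protein N-glycosylation. The group described here comprises Alg1, Alg2, Alg3, Alg5, Alg6, Alg8, Alg9, Alg12, Alg13 and Alg14. Every probe set whose gene symbol, updated through its gene identifier, was one of these was taken. This gave 10 of the 18193 genes named on the array, and 18 of its 45037 non-control probe sets. No probe set with several gene symbols included a member. The family was selected on the strain difference of Alg14, which was among the genes called in these same arrays. The strain differences of the members are therefore given as a description.

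Expression had been measured in bone marrow cells of adult female mice aged 6 to 16 weeks, sorted against mature lineage markers, a step that enriches blood stem cells and progenitors. Of 6 Affymetrix mouse arrays, 3 held RNA of B.D(Chr5) mice, whose label names chromosome 5 and whose genetic background is given as B.D, and 3 held RNA of C57B/L6 mice. The labels call the 3 samples of a strain biological replicates, but do not state if a sample came from 1 mouse or from pooled mice. The p-values cover only the variation among the deposited samples. The labels name no treatment, and strain is the only difference they give between the groups.

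N-glycan assembly starts on the cytosolic face of the endoplasmic reticulum, where sugars are added to the lipid carrier dolichol. The partly built glycan is then turned to the lumenal side, extended with mannose and capped with glucose, and moved as a block onto new glycoproteins by oligosaccharyltransferase. Loss-of-function mutations of many of these enzymes cause congenital disorders of glycosylation in humans. Blood cells use the pathway for the receptors and adhesion molecules on their surface.

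Median signals of the 6 arrays ran from 65.0 to 79.5. The 95th percentile of the 27 bacterial control probe sets of an array, which have no target in mouse RNA, was taken as its background and lay between 21.8 and 38.0. No array held the same values as another, with 0 identical pairs. All 6 genes fixed as markers of stem and progenitor cells were measured, and the sum of their brightest probe sets ran from 27155 to 33143 in B.D(Chr5) and from 28531 to 32623 in C57B/L6. Its largest term was Myb, with a mean of 17061 in B.D(Chr5) and 16689 in C57B/L6, so the sum says little of the others. Of the 11 tested probe sets of these genes, 9 had log2 changes below 0 and 2 above, with a median of -0.12. On Meis1 1450992_a_at, at -0.41, the strains did not overlap. Signal from mature lineages was also present. The neutrophil sum, over 4 of 5 marker genes, was 17090.4 to 26893 in B.D(Chr5) and 12410 to 15102 in C57B/L6. The B cell sum, over 3 of 4 genes, was 1540 to 4286 in B.D(Chr5) and 1401 to 1699 in C57B/L6. All 4 tested probe sets of each list had log2 changes above 0. The medians were 0.51 for neutrophils and 0.60 for B cells. The neutrophil sums of the strains did not overlap. The top of both B.D(Chr5) ranges came from replicate 3. On that array the neutrophil gene Ngp read 13905, against 9806 and 9364 on replicates 1 and 2. The B cell gene Ms4a1 read 1113, against 304 and 224. The stromal sum, over 4 genes, was 1984 to 3760.0 in B.D(Chr5) and 535 to 2431 in C57B/L6, with log2 changes above 0 on all 8 tested probe sets and a median of 1.13. The T cell sum, over 5 genes, was 610 to 889 in B.D(Chr5) and 844 to 1296 in C57B/L6, with a median log2 change of -0.40 over 4 tested probe sets. Of 44 tested probe sets of the marker genes of 7 cell types, 0 passed limma's adjusted threshold (0.182% of all tested probe sets did) and 15 had an unadjusted p under 0.05 (4.75% of all).

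Signal was measured for all 10 members. Of the 18 probe sets, 13 were in the upper 50% of the array by mean signal and were tested, and these 13 covered every member gene. On all 6 arrays, 12 of the 18 lay above the bacterial controls. Among the tested probe sets, Alg14 1419115_at did not, exceeding the controls on 2 of 3 B.D(Chr5) arrays. The 5 probe sets not tested were 1 each of Alg2, Alg5, Alg6, Alg9 and Alg14. They reached at most a signal of 62.3, and 0 of them exceeded the controls on all 6 arrays. For each of these genes, a brighter probe set of the same gene was measured.

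**Figure D1:**
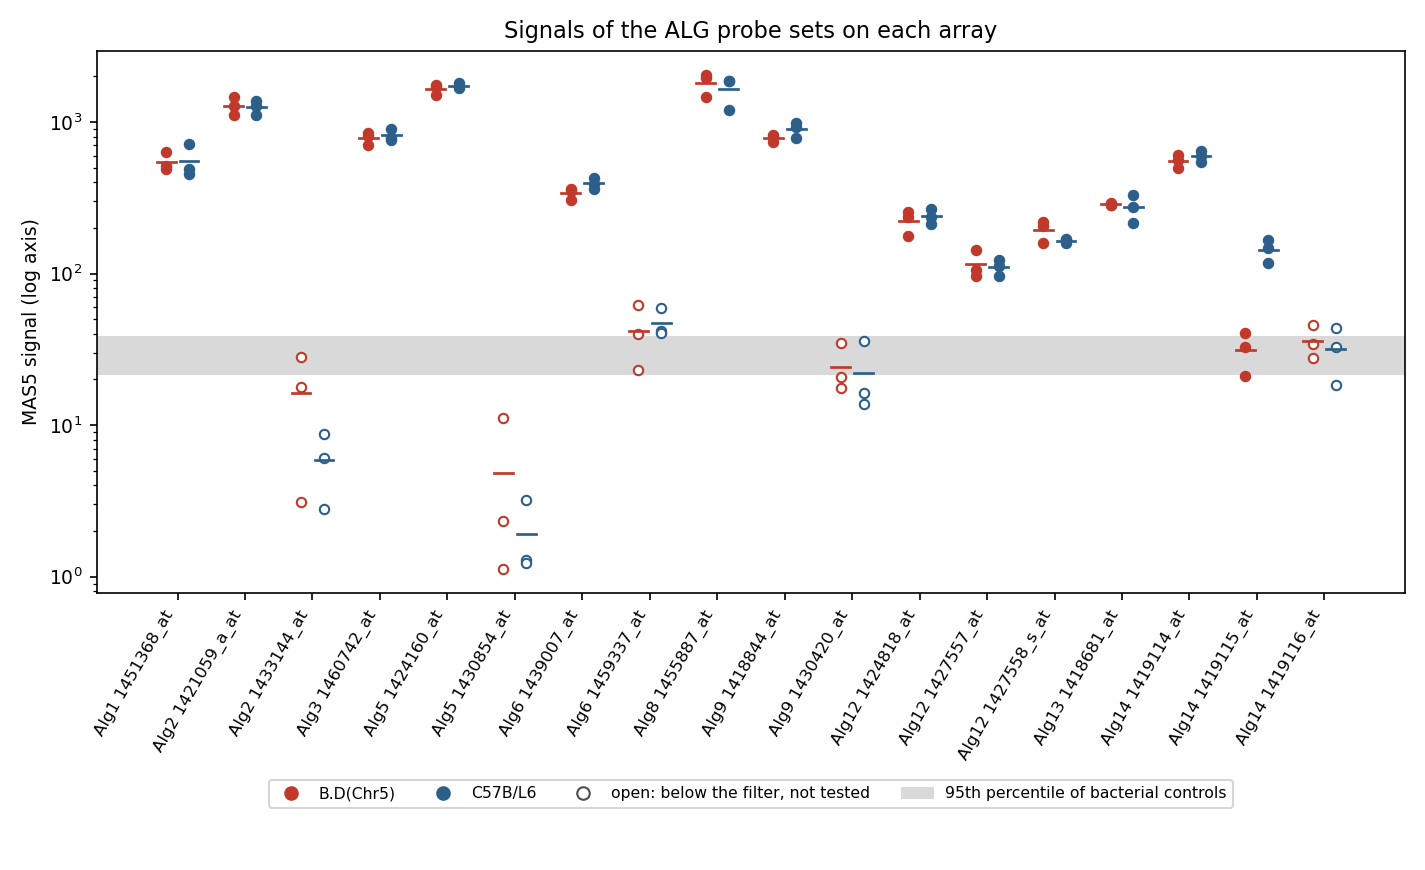
MAS5 signal (log axis) of the 18 ALG probe sets, with 1 point per array and a bar at the mean of the 3 arrays of B.D(Chr5), left, and of C57B/L6, right. Open points mark the 5 probe sets below the filter, and the grey band is the range over arrays of the 95th percentile of the bacterial controls. The strains separate on Alg14 1419115_at, where the B.D(Chr5) arrays read 32.7, 40.5 and 21.0, at or near the height of the band.

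The first ALG step adds the second N-acetylglucosamine to dolichol and is carried out by a complex of Alg13 and Alg14. Alg14 is the membrane protein that holds the catalytic subunit Alg13 at the endoplasmic reticulum. Alg14 had 3 probe sets, all assigned to 1 source transcript in the platform annotation, and 2 of them were tested. On 1419115_at the signal was 32.7, 40.5 and 21.0 in B.D(Chr5), against 118, 167 and 147 in C57B/L6. All 3 B.D(Chr5) arrays lay below all 3 C57B/L6 arrays. The means were 31.4 ± 9.83 in B.D(Chr5) and 144 ± 24.7 in C57B/L6 (SD, n = 3 each), 4.59-fold lower in B.D(Chr5) as a ratio of means. Differences below are taken on log2(signal + 16), a scale that understates changes of dim probe sets, as B.D(Chr5) minus C57B/L6. On it 1419115_at fell by 1.77 with an SE of 0.26 (limma, Benjamini-Hochberg adjusted p = 0.0341).

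The dim side of this difference lay close to background. The B.D(Chr5) signals of 1419115_at compare with control percentiles of 23.4, 31.8 and 38.0 on the same arrays, so replicate 3 read below its own background. With every signal raised to at least the control percentile of its array, an alternative chosen after seeing the data, the log2 change was -1.58 (limma adjusted p = 0.0298). The call did not hold in every setting. The adjusted p was 0.108 without B.D(Chr5) replicate 1, 0.0920 without C57B/L6 replicate 1, 0.313 without C57B/L6 replicate 2 and 0.263 without C57B/L6 replicate 3. It was 0.140 when all probe sets were tested. The B.D(Chr5) signals of 1419115_at lay below the median signals of their arrays (65.0, 67.5 and 79.5). This probe set thus passed the filter through its C57B/L6 signals, and its adjusted p is given as a description. The log2 change stayed between -1.90 and -1.60 whichever array was left out.

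The brightest Alg14 probe set showed no such gap. On 1419114_at the signal was 603, 560.2 and 496 in B.D(Chr5), against 594, 647 and 541 in C57B/L6. The strains overlapped, and the log2 change was -0.10 with a 95% interval from -0.38 to 0.18 (limma adjusted p = 1.00). That interval does not reach the change seen on 1419115_at. The remaining probe set, 1419116_at, was below the filter and had signals of 27.8, 45.6 and 34.3 in B.D(Chr5), against 32.8, 18.4 and 43.7 in C57B/L6. It exceeded the controls on 2 arrays of each strain, so no comparison rests on it.

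Taking 1 Alg14 probe set against another within each array removes any shift that they share. The log2 value of 1419115_at minus that of 1419114_at was -3.67, -3.35 and -3.79 in B.D(Chr5), against -2.19, -1.86 and -1.77 in C57B/L6. The strains did not overlap, and the difference between their means was -1.66. The gap describes the probe set on which the family was selected and is no separate support for it. With single arrays left out the gap ran from -1.79 to -1.57. Which parts of the Alg14 transcript each probe set reads is not given in the sources used here, and whether strain variants lie under the probes was not tested.

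Alg13, the partner, had 1 probe set. Its signal was 282, 284 and 294 in B.D(Chr5), against 273, 217 and 329.7 in C57B/L6. The B.D(Chr5) values lay within the range of the C57B/L6 values. The means were 287 ± 6.38 in B.D(Chr5) and 273 ± 56.5 in C57B/L6 (SD, n = 3 each), and the log2 change was 0.08 with a 95% interval from -0.29 to 0.46 (limma adjusted p = 1.00).

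How the partners stood to each other depended on the Alg14 probe set. Within each array, the log2 value of Alg13 minus that of Alg14 1419114_at was -1.05, -0.94 and -0.73 in B.D(Chr5), against -1.08, -1.51 and -0.69 in C57B/L6, with the strains overlapping and their means 0.18 apart. Against Alg14 1419115_at it was 2.61, 2.41 and 3.07 in B.D(Chr5) and 1.11, 0.35 and 1.08 in C57B/L6. There the strains did not overlap and their means differed by 1.85. The strains thus separated with 1 of the 2 tested Alg14 probe sets, the one on which the family was selected. With 1419116_at, which lay at background, no comparison was made. These are differences between arrays of the same probe sets, and say nothing of which partner has more transcript.

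**Figure D2:**
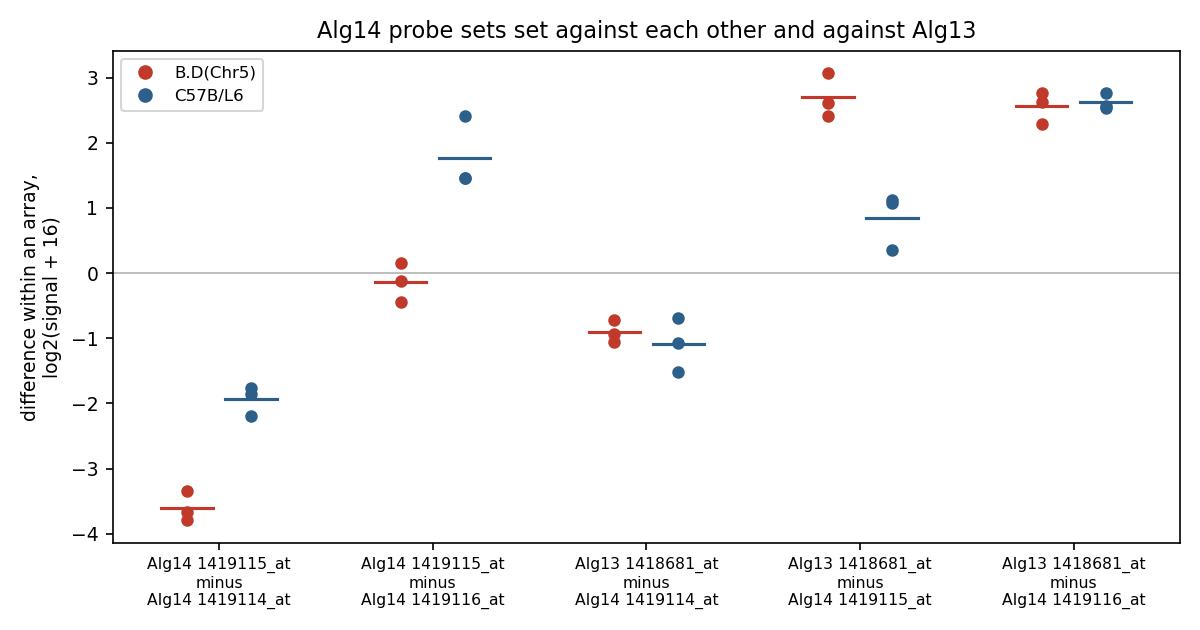
Difference between a pair of probe sets within each array, in log2(signal + 16), with 1 point per array and a bar at the mean of B.D(Chr5), left, and of C57B/L6, right. Among pairs of tested probe sets, the strains separate where Alg14 1419115_at is included, by -1.66 against 1419114_at and by 1.85 for Alg13, and overlap for Alg13 against 1419114_at. Pairs with 1419116_at, a probe set at background, are drawn for completeness and carry no comparison.

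The mannosyltransferases that work next, still on the cytosolic side, overlapped between the strains. Alg1 adds the first mannose and had signals of 632, 490.5 and 510.2 in B.D(Chr5), against 721, 489 and 455 in C57B/L6. Its highest reading was on a single C57B/L6 array, and without that replicate 1 the log2 change was 0.19, against -0.0075 with all arrays. Alg2 adds the mannoses that follow. On its tested probe set it had signals of 1267, 1461 and 1115 in B.D(Chr5), against 1376, 1112 and 1272 in C57B/L6, with a log2 change of 0.028 and a 95% interval from -0.25 to 0.30. Neither gene's difference was larger than the spread between arrays of a strain.

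On the lumenal side, Alg3 adds the first mannose, and Alg9 and Alg12 add the later ones. Alg3 had signals of 803, 840.1 and 705 in B.D(Chr5), against 787, 901 and 766 in C57B/L6, a log2 change of -0.064 with a 95% interval from -0.32 to 0.19. Alg9 had signals of 792, 819 and 736 in B.D(Chr5), against 978, 923 and 787 in C57B/L6. A single C57B/L6 array overlapped with B.D(Chr5), and the log2 change of -0.19, with a 95% interval from -0.44 to 0.066, had the lowest unadjusted p of the members other than Alg14, at 0.129 in limma (adjusted p = 1.00).

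Alg12 had 3 tested probe sets, and their differences pointed both ways. On 1424818_at the signals were 255, 178 and 237 in B.D(Chr5), against 211, 268 and 237 in C57B/L6, a log2 change of -0.098. On 1427557_at they were 143, 96.8 and 106 in B.D(Chr5), against 124, 112 and 96.0 in C57B/L6, a log2 change of 0.044. The strains overlapped on both. On 1427558_s_at, whose suffix marks probes shared with other transcripts, they were 218, 159.9 and 205 in B.D(Chr5), against 159.5, 166 and 169 in C57B/L6. B.D(Chr5) replicate 2 lay at the low end of the C57B/L6 values there, and the log2 change was 0.21 with a 95% interval from -0.18 to 0.60. None of the 3 passed the threshold in limma.

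The glucose branch closes the precursor. Alg5 makes the lipid-linked glucose donor, Alg6 adds the first glucose, and Alg8 adds the second. Alg5, which like Alg14 lies on chromosome 3, had signals of 1697, 1750.1 and 1512 in B.D(Chr5), against 1719, 1808 and 1689 in C57B/L6, a log2 change of -0.074 with a 95% interval from -0.27 to 0.13. Alg6 had signals of 306, 349 and 364 in B.D(Chr5), against 388, 429 and 363 in C57B/L6. C57B/L6 replicate 3 read just below the highest B.D(Chr5) array, and the log2 change was -0.20 with a 95% interval from -0.50 to 0.097. Alg8 had signals of 2030.3, 1946 and 1457 in B.D(Chr5), against 1871, 1865 and 1193 in C57B/L6. Replicate 3 was the lowest of each strain. The log2 change of Alg8 was 0.15, and -0.059 without C57B/L6 replicate 3.

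Over the family, 1 of the 13 tested probe sets passed the threshold, beside 0.182% of all 22518 tested probe sets (41 probe sets). Since the family was chosen for that probe set, the count carries no weight. The same probe set was the 1 of 13 whose strains did not overlap, beside 9.40% of all tested probe sets. Of the 13 log2 changes, 8 were below 0 (49.9% of all tested probe sets were) and 5 above, with a median of -0.064, beside 0.00025 for all tested probe sets. Without Alg14, the 11 tested probe sets of the other members had log2 changes from -0.20 to 0.21, 6 below 0 and 5 above. Their median absolute log2 change was 0.084, beside 0.095 for all tested probe sets. The lowest bound of their 95% intervals was -0.50, for Alg6, and the highest was 0.60, for Alg12 1427558_s_at. In such bulk samples fewer cells of a type and less RNA per cell cannot be told apart.

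**Figure D3:**
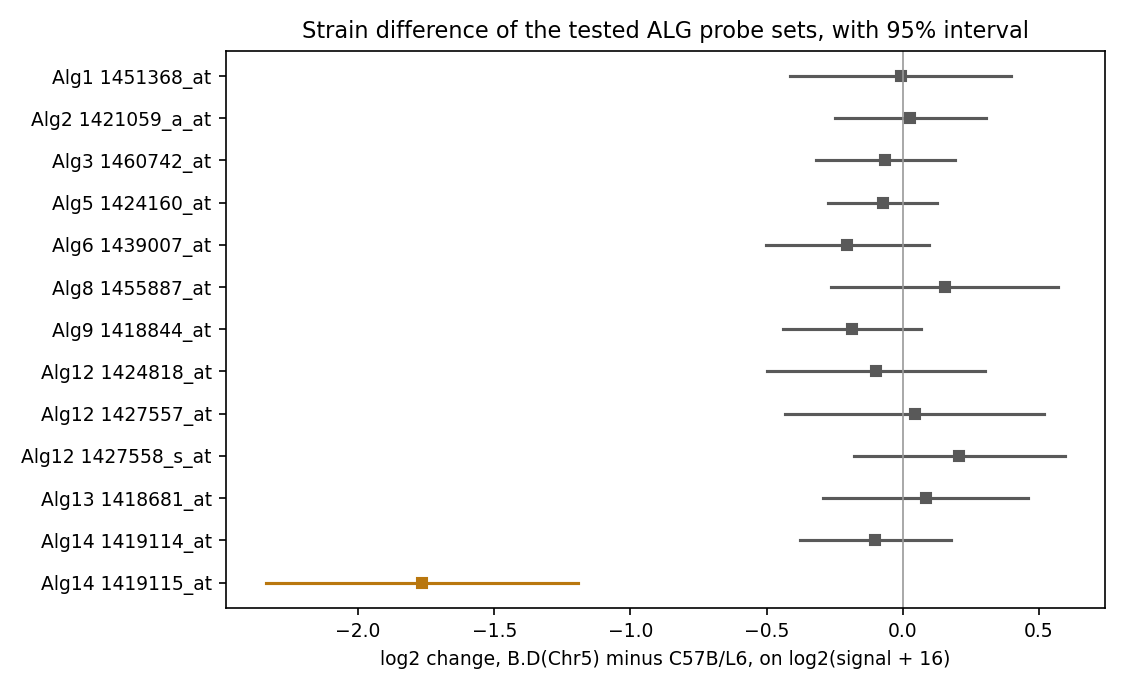
Log2 change, B.D(Chr5) minus C57B/L6, on log2(signal + 16) for the 13 tested ALG probe sets, as squares with 95% limma intervals. Alg14 1419115_at stands at -1.77, in orange, and the other 12 intervals include 0.

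The rest of the pathway was read from 5 gene lists, of which 42 of 44 genes had a tested probe set. Of these, 0 passed the threshold in limma in either direction, beside 0.182% of all tested probe sets. Of their 87 tested probe sets, 4 had an unadjusted p under 0.05, beside 4.75% of all tested probe sets, and the strains did not overlap on 5, beside 9.40% of all tested probe sets. Of the 87 log2 changes, 60 were above 0 and 27 below, with a median of 0.050, beside 0.00025 for all tested probe sets. Over all tested probe sets, 49.9% were below 0. Many of the listed genes have several probe sets, so these changes are not separate genes.

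Genes for dolichol supply had a median log2 change of 0.088 over 15 probe sets. The lowest p values there were those of Dhdds, a subunit of the enzyme that builds the dolichol chain, with a mean signal of 277 ± 42.7 in B.D(Chr5) and 224 ± 15.9 in C57B/L6, and of Srd5a3, which reduces polyprenol to dolichol, with 642 ± 46.3 in B.D(Chr5) and 577 ± 32.4 in C57B/L6 (SD, n = 3 each). The other tested probe sets of Dhdds had log2 changes of -0.15 and 0.19, and those of Srd5a3 ran from -0.019 to 0.17. The other genes of precursor assembly, such as Dpagt1, Alg10b and Alg11, had a median of 0.017 over 10 probe sets. Mpdu1, needed for the use of lipid-linked mannose and glucose, had 736 ± 7.02 in B.D(Chr5) and 822 ± 97.9 in C57B/L6. Alg11, which adds the last cytosolic mannoses, had 96.2 ± 11.6 in B.D(Chr5) and 79.1 ± 14.8 in C57B/L6 (SD, n = 3 each) on the dimmer of its probe sets.

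Genes for the sugar donors had a median log2 change of 0.036 over 25 probe sets. Gmppb, which makes GDP-mannose, had 577 ± 70.7 in B.D(Chr5) and 481 ± 92.4 in C57B/L6, and Uap1, which makes UDP-N-acetylglucosamine, the substrate of Alg13 and Alg14, had 80.7 ± 13 in B.D(Chr5) and 109 ± 22.0 in C57B/L6 (SD, n = 3 each) on a probe set whose suffix marks cross-hybridising probes. The other tested probe sets of Uap1, all brighter, had log2 changes of -0.020, -0.041 and -0.049. None of these pairs of values passed the threshold in limma (adjusted p = 1.00).

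Of the 23 tested probe sets of the oligosaccharyltransferase genes, 18 had log2 changes above 0, with a median of 0.084. Several of them read the same gene, such as Rpn1. Magt1, an oxidoreductase subunit, had 4533 ± 160.0 in B.D(Chr5) and 3994 ± 263 in C57B/L6 (SD, n = 3 each). For Ostc, a small subunit also on chromosome 3, the dimmer probe set had signals of 113, 117 and 125 in B.D(Chr5), against 149, 177 and 167 in C57B/L6, with no overlap and a log2 change of -0.43 (limma adjusted p = 1.00). Its brighter probe set had 5584, 4843 and 5189.9 in B.D(Chr5), against 4724, 5221 and 4655 in C57B/L6, with a log2 change of 0.096. The probe sets of Ostc thus pointed opposite ways, as those of Alg12 did, and neither passed.

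Of the 14 tested probe sets of glycan trimming and the lectin chaperones, 12 had log2 changes above 0, with a median of 0.050. Several of them read the same gene, such as Calr and Canx. Uggt1, which re-glucosylates misfolded glycoproteins, had 1796 ± 149 in B.D(Chr5) and 1546 ± 84.2 in C57B/L6, and Pdia3, the disulfide isomerase that works with calnexin and calreticulin, had 11971 ± 1279 in B.D(Chr5) and 10403 ± 912 in C57B/L6 (SD, n = 3 each). The other tested probe set of Uggt1 had a log2 change of 0.028, and that of Pdia3, far dimmer, of -0.026. None of these passed the threshold in limma. Markers of plasma cells, which secrete glycoproteins in bulk, had higher sums on the same B.D(Chr5) arrays. The sum of the 5 plasma cell markers was 21963 to 27269 in B.D(Chr5) and 19666 to 20381 in C57B/L6, and 10 of their 11 probe sets had log2 changes above 0. None of the 5 passed the threshold in limma, and 4 of the 11 probe sets had an unadjusted p under 0.05 (4.75% of all), all of Xbp1 or Mzb1. The other markers were less uniform. Sdc1 ran from -0.11 to 0.22, and Prdm1 was at 0.038. Jchain, the largest term of the sum, read 11022 on B.D(Chr5) replicate 3, below all 3 C57B/L6 arrays. Of these markers Xbp1, a transcription factor of the unfolded protein response, had signals of 8236, 6674 and 7597 in B.D(Chr5), against 5486, 5798 and 5475 in C57B/L6 on 1420886_a_at, without overlap (limma adjusted p = 0.248). The part of these cells in the values of the pathway lists was not tested.

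**Figure D4:**
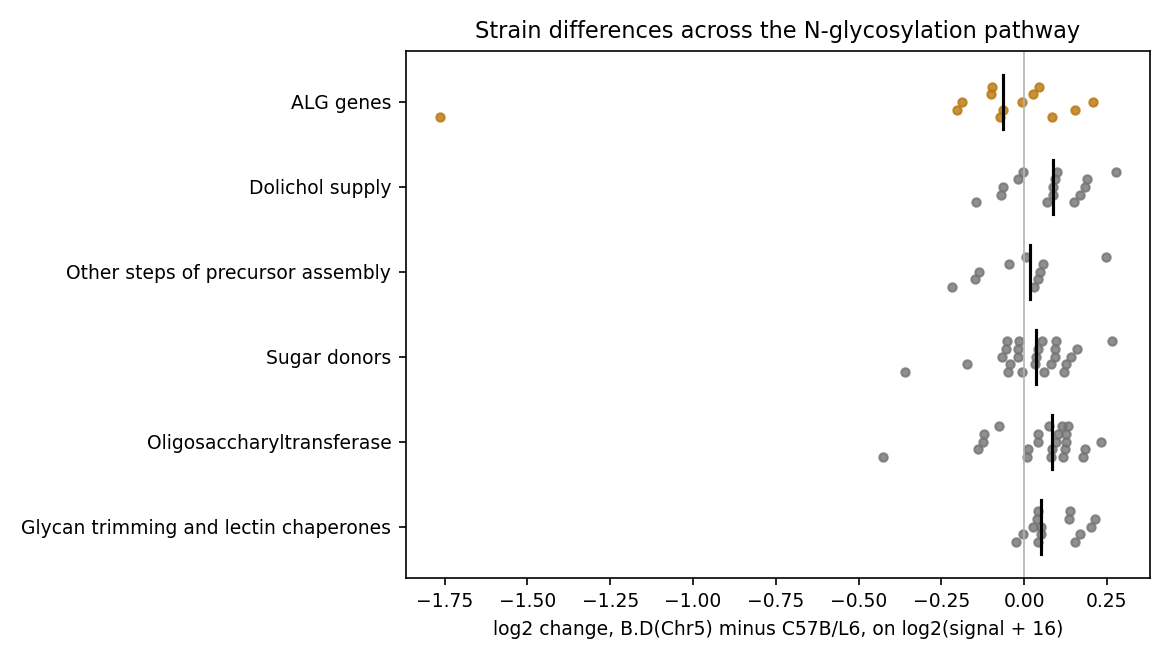
Log2 change, B.D(Chr5) minus C57B/L6, on log2(signal + 16) for each tested probe set of the ALG genes, in orange, and of 5 lists of other N-glycosylation genes, in grey. Black bars are medians, which run from -0.064 for the ALG genes to 0.088 for dolichol supply, and Alg14 1419115_at is the point at -1.77.

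Alg14 lies on chromosome 3, not on the chromosome for which B.D(Chr5) is named. In the RefSeq annotation its nearest tested neighbours are Rwdd3 and Tlcd4 on one side and Cnn3 and Abcd3 on the other. Tlcd4 had a log2 change of -2.37 on 1434553_at, Cnn3 of -1.61 on 1436836_x_at and Rwdd3 of 1.02 on 1451809_s_at, all past the threshold in limma (adjusted p = 0.00176, 1.86e-04 and 0.0292). Abcd3, which encodes a peroxisomal transporter, had 1582 ± 57.1 in B.D(Chr5) and 2017 ± 102 in C57B/L6 (SD, n = 3 each), a log2 change of -0.35 that did not pass (limma adjusted p = 0.382). The call of Rwdd3 rests on a probe set whose suffix marks probes shared with other transcripts. On its other probe set, 1430167_a_at, the strains overlapped, and the log2 change of 0.16 did not pass. Tlcd4 1431404_at, at -0.68, and Cnn3 1438354_x_at and 1456380_x_at, at -0.79 and -1.65, did not pass either. The suffix of Cnn3 1436836_x_at marks cross-hybridising probes. Cnn3 1426724_at, without that suffix, had a log2 change of -1.33 and passed (limma adjusted p = 3.85e-04). Alg14 1419115_at, at rank 35 by p among all tested probe sets, thus sat between Tlcd4 and Cnn3, both called lower in B.D(Chr5). The gene called higher, Rwdd3, lay beyond Tlcd4. Rwdd3, Tlcd4 and Alg14 were each called on only 1 probe set. Whether the changes of these neighbours share a cause was not tested.

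The probe sets most like Alg14 1419115_at over the 6 arrays, by Pearson's r of log2(signal + 16) among 19719 tested probe sets of other named genes, were those of Dcaf8 (r = 0.997), Rbm22 (0.996), Calhm6 (0.992), Mndal (0.990) and Rbis (0.987). Their arrays share the split into strains, which alone makes r large, and r takes no account of size. Mndal, of the p200 family of interferon-inducible genes, was the 1 of the 5 past the threshold in limma, with signals of 61.8, 58.5 and 12.6 in B.D(Chr5), against 4487, 5769 and 6184 in C57B/L6 on that probe set. Since B.D(Chr5) replicate 3 lay below its background of 38.0, the size of that change is uncertain. The log2 changes of the other 4 ran from -0.46 for Dcaf8 to -0.097 for Rbm22.

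Sequences before the transcription start were available for 9 of the 10 members, in the RefSeq table of GRCm38.p6, and were read for motifs of the endoplasmic reticulum stress response, which is known to raise genes of protein folding and glycosylation. Of these 9, 1 held the stress element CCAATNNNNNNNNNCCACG, on either strand, within 250 bases before and 50 after the start. That was Alg12, and 0.119% of all 32851 promoters in the table held it. The shorter CCAAT, which that element contains, was in 5 of the 9 and in 37.4% of all promoters. TATAAA was in 2 of the 9, Alg9 and Alg13, against 13.6% of all, and TGACGTGG in 0 of the 9, against 0.676%. The windows of the 9 had 7 to 38 CpG dinucleotides, against a median of 7 over all promoters. The 250 bases before the start are shown for the partners Alg14 and Alg13 and for Alg12, as the gene with the stress element, with the motif letters in capitals. A match to letters is a description and not a binding site.
Alg14 (GRCm38.p6 chr3:121291490-121291739, plus strand): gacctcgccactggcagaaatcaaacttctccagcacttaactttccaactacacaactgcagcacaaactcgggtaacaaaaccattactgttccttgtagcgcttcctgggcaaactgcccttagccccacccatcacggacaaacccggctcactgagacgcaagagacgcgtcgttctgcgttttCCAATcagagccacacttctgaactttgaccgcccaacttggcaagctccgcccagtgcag
Alg13 (GRCm38.p6 chrX:144317716-144317965, plus strand): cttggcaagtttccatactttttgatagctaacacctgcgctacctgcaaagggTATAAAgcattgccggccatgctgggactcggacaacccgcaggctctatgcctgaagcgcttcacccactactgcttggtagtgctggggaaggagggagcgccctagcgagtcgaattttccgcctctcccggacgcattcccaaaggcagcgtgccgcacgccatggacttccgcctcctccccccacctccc
Alg12 (GRCm38.p6 chr15:88819319-88819568, minus strand): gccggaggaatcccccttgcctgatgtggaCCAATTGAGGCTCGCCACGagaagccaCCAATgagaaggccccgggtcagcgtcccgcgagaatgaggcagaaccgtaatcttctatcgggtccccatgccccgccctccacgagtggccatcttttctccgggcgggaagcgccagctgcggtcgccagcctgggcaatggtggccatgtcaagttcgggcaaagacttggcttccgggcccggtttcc

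Alg14 had CCAAT 61 bases before its start, and the table lists 1 start for it. Alg13 had TATAAA 196 bases before its start and CCAAT only past the start, outside the stretch shown. In Alg12 the stress element begins 220 bases before the start, and another CCAAT lies 193 bases before it. Alg12, the gene with the element, had log2 changes of -0.098, 0.044 and 0.21 on its 3 probe sets, as given above.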

How the data were processed

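The deposited table held 1 intensity per probe set and array, on a linear scale, which the authors had made with MAS5, according to the labels' list of processing tools and per the labels. Its version and settings are not stated there, so background correction could not be redone. After 64 control probe sets were left out, 34945 of the probe sets had 1 gene symbol, 932 several and 9160 none. Symbols were updated through gene identifiers to RefSeq GRCm38.p6, which held 34741 of them. Intensities were turned into log2(signal + 16), the upper 50% by mean over the arrays were tested, and strain was fitted as the only term with limma 3.58.1 (R 4.3.3; lmFit, eBayes with trend, two-sided, Benjamini-Hochberg adjustment over all 22518 tested probe sets, threshold 0.05). A gene was called if any tested probe set passed. The fit was tested on simulated data with independent normal noise. That simulation had no background floor and no effects shared within an array, so it cannot show how the fit behaves with these. The number of arrays limits the precision.

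The members and lists were chosen with earlier results of these data known. Named genes were every member, the called or otherwise the 2 genes of smallest p per list, the 2 nearest tested genes on each side of Alg14, and the 5 probe sets most like it. Xbp1, the other single marker genes and the values of Mndal were singled out after their values were seen. So were the further probe sets of Ostc, Uap1, Dhdds, Srd5a3, Uggt1, Pdia3 and the neighbours of Alg14. Alternatives covered the pseudocount, the filter, normalization, eBayes trend, a replicate block and leaving out each array. Raising signals to the bacterial controls was added after seeing the data.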

Additional observations from a re-analysis of the deposited data

How the results depend on the processing

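Of the 15 alternatives, 6 left out 1 array each. The log2 change of Alg14 1419115_at was negative in all 15, and past the threshold in limma in 9. It was -1.77 without a filter (adjusted p = 0.140) and -1.77 with the replicate block (adjusted p = 0.147), and 0 ALG probe sets were called in either setting. Without single arrays it ran from -1.90 to -1.60, with adjusted p from 0.0335 to 0.313 and 0 to 1 ALG probe sets called. Over all probe sets tested, 67 were called with arrays centred on the median, 25 without trend, 27 with the replicate block, and 21 to 73 without single arrays (B.D(Chr5) replicate 1 gave 21 and replicate 2 gave 73 when left out, C57B/L6 replicates 2 and 3 gave 24 and 22). The replicate numbers did not pair the arrays: deviations of same-numbered arrays from their strain means correlated at -0.11, -0.20 and 0.20. The gap between the Alg14 probe sets was -2.09 with a pseudocount of 1 and -1.03 with 64, and that of Alg13 over Alg14 1419115_at was 2.29 and 1.19. The other 12 tested ALG probe sets passed in 0 of 180 repeats, and 7 of them changed sign in 12 repeats, each time with an array left out. Their log2 changes then ran from -0.13 to 0.19 for Alg1, -0.070 to 0.12 for Alg2, -0.12 to 0.0085 for Alg3, -0.059 to 0.30 for Alg8, -0.19 to 0.045 for Alg12 1424818_at, -0.10 to 0.15 for Alg12 1427557_at and -0.064 to 0.22 for Alg13. The cause was not tested. The ALG median, the gap of Alg13 over Alg14 1419114_at and the counts and medians of the 5 pathway lists kept their counts or moved by less than 1 SD between replicates. Marker sums, neighbours of Alg14 and the most similar probe sets were not recomputed.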
